A study of Mus musculus with 3 samples.

Results

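Glycolysis, the pentose phosphate pathway and the tricarboxylic acid (TCA) cycle were described through 48 genes in the cytosol of mouse bone marrow-derived macrophages. The genes were chosen by symbol: 1 glucose transporter, 3 hexokinases, 7 genes of upper and 5 of lower glycolysis, 2 lactate dehydrogenases, 5 genes around pyruvate dehydrogenase, 17 of the TCA cycle, 6 of the pentose phosphate pathway, the itaconate enzyme gene Acod1 and the regulator gene Hif1a. They are 48 of the 55536 genes annotated in GENCODE M21. The rule uses gene symbols alone.

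Bone marrow-derived macrophages are primary cells grown from marrow, here from C57BL/6J mice without further alleles given. Ribosome-depleted total RNA of the cytosolic fraction was sequenced in 3 libraries, labelled biological replicates 1, 2 and 3, all at 0 minutes of stimulation with 100 ng/ml lipid A, the active part of bacterial lipopolysaccharide. There is 1 group and no other time or fraction was used here, so levels, ratios and the spread between libraries are described, and no treatment is compared. The 3 libraries carry 1 donor label, and age and sex were not collected, so the SDs given here describe these samples alone, and part or all of that spread could be technical.

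Glycolysis splits glucose into pyruvate, which either becomes lactate in the cytosol or enters mitochondria, where pyruvate dehydrogenase feeds it into the TCA cycle. The pentose phosphate pathway branches off after hexokinase and makes NADPH, which macrophages use for the oxidative burst, and ribose for nucleotides. Macrophages are known to raise glycolysis after lipopolysaccharide, with part of this carried by the oxygen-sensing factor HIF-1, and to divert the TCA intermediate aconitate to itaconate through Acod1.

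Levels are given as TPM (transcript abundance scaled to a fixed total per library), which corrects for transcript length and so can be compared between genes. Most TPM in these libraries belonged to the noncoding 7SL RNA (62.4, 62.6 and 59.5% in replicates 1, 2 and 3), and protein-coding genes held 26.2, 22.0 and 21.7%, so mRNA values are low on this scale. Expected counts, the estimated reads per gene, summed to 26318761, 41897257 and 56290298. All 8 macrophage markers checked were above a TPM of 1 in every library, against 1 of 8 neutrophil markers and none of 5 each for T cells, B cells, erythroid cells and fibroblasts. The neutrophil markers summed to 2.60, 1.92 and 3.26 TPM, with Ly6g at 0 in each library. In bulk samples, fewer cells of a type and less RNA per cell cannot be told apart.

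All 48 genes reached a TPM of at least 1 in all 3 libraries, the threshold used here for detection. The background was 17.0% of all annotated genes and 41.0% of the 22028 protein-coding genes. The genes were chosen with earlier results of these data known, so their detection may not be independent of that choice. The median of the 48 mean levels was 21.9, against 7.19 for the detected protein-coding genes, and 38 of the 48 lay above that second value. The genes spanned more than 2 orders of magnitude on the log axis, with 13 at a mean of 50 or more, 21 between 10 and 50, and 14 below 10. Together they took 0.774 ± 0.0423% of the protein-coding TPM (SD, n = 3). Glycolysis with lactate dehydrogenase took 0.470 ± 0.0330%, pyruvate dehydrogenase with the TCA cycle 0.195 ± 0.0052% and the pentose phosphate genes 0.102 ± 0.0043%.

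**Figure D1:**
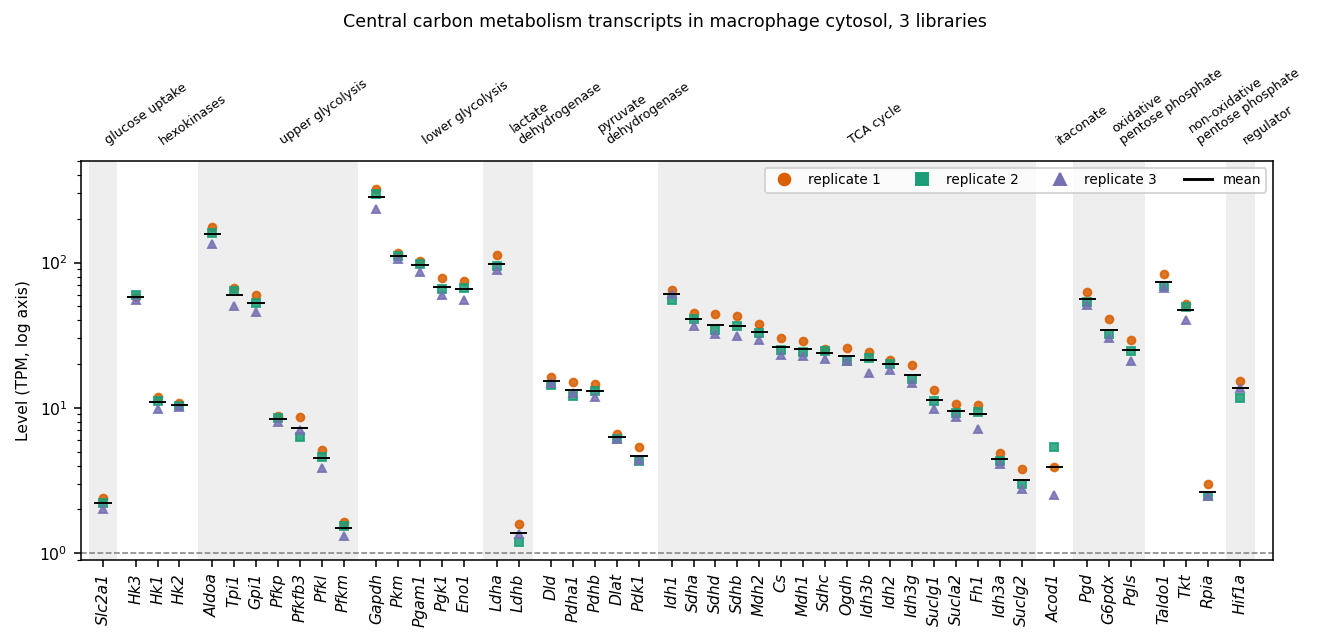
Level of each of the 48 genes (TPM, log axis) in the 3 libraries, grouped by role; points are libraries, black bars are means, and the dashed line marks a TPM of 1. Gapdh is at the top with a mean of 282, Ldhb at the bottom with 1.38, and the 5 lower glycolysis genes all have means of 65.9 or more.

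In the order of mean levels, 41 of the 47 neighbouring pairs had ranges over the 3 libraries that overlapped. Of these 41, 16 were in the same order in all 3 libraries and 25 were not. The pairs without overlap were Gapdh above Aldoa, Aldoa above Pkm, Pgam1 above Taldo1, Dlat above Pdk1, Rpia above Slc2a1 and Slc2a1 above Pfkm. In all, 22 of the 47 neighbours kept 1 order in the 3 libraries.

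Glucose entry showed a low transporter transcript and 3 unequal hexokinases. Slc2a1, which encodes the facilitative glucose transporter GLUT1, had TPM values of 2.39, 2.20 and 2.02 in replicates 1, 2 and 3. This put it at the 12.9 percentile of detected protein-coding genes and at rank 46 of the 48. Hk3, the hexokinase typical of myeloid cells, had 58.1, 59.8 and 55.6. Its transcripts typed as protein-coding held 54.4, 48.3 and 37.6 of this, or 93.6, 80.8 and 67.5%. Hk1, the widely expressed form bound to mitochondria, had 11.8, 11.1 and 9.84, and Hk2, the form induced by growth signals and by HIF-1, had 10.8, 10.3 and 10.1. Every library held Hk3 far above the other two, whose ranges overlapped in this RSEM-format table. In a second set of tables, in kallisto format and summed here to genes, Hk1 had TPM values of 5.12, 5.70 and 4.16 and Hk2 had 3.42, 3.67 and 2.87, with no overlap.

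The log2 ratio of Hk3 to Hk2, taken as log2 of TPM + 0.1 over TPM + 0.1, was 2.47 ± 0.05 (n = 3), which is 5.53-fold. The ratio of Hk1 to Hk3 was -2.40 ± 0.10. The ratio of Hk1 to Hk2 was 0.07 ± 0.09 and changed sign between libraries, at 0.13, 0.10 and -0.03. It was 0.57 with kallisto-format TPM and 0.56 with protein-coding transcripts alone, an alternative chosen after seeing the data. Such transcripts of the RSEM-format table gave Hk1 11.78, 11.05 and 9.81 and Hk2 8.17, 7.21 and 6.71, without overlap. The mean ratio thus favoured Hk1 each way. Its size, and the order in replicate 3, depended on the table and on the transcripts counted. Across the 23 isoenzyme and subunit pairs examined, 20 kept 1 sign in all 3 libraries. With 3 libraries the smallest p of a two-sided exact sign-flip test is 0.25, which all 20 of these pairs reached (0.2875 after Benjamini-Hochberg adjustment over the 23). None can therefore pass a threshold of 0.05, and the ratios are read by their size against their SD.

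**Figure D2:**
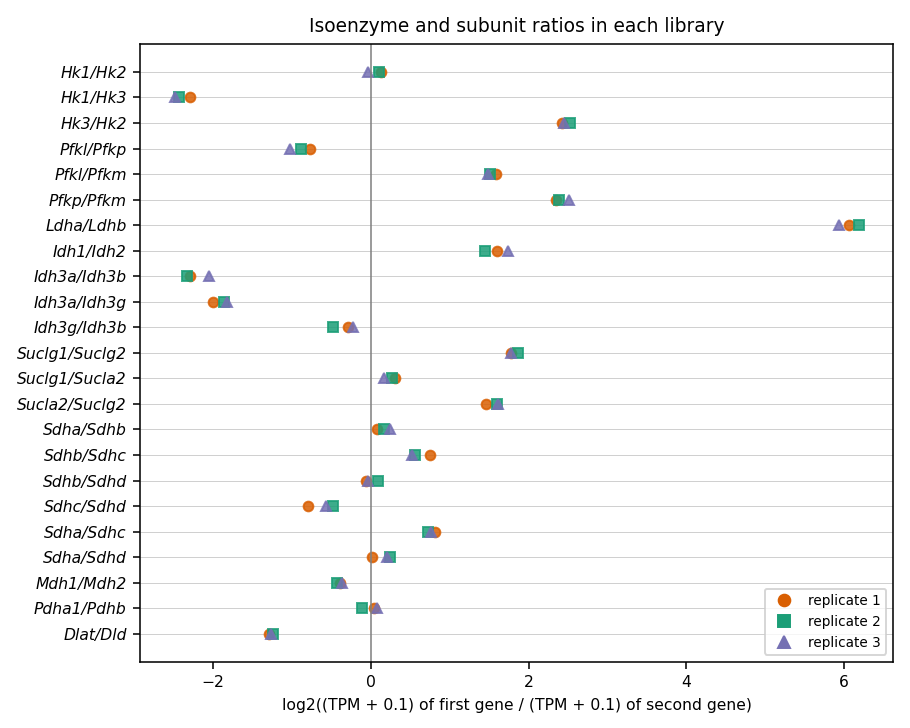
The log2 ratio of TPM + 0.1 for 23 pairs of isoenzymes or subunits in each library; 0 means equal levels. Ldha to Ldhb stands apart at 5.93 to 6.19, Hk3 to Hk2 lies between 2.42 and 2.52, and Hk1 to Hk2, Sdhb to Sdhd and Pdha1 to Pdhb straddle 0.

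Among the genes of upper glycolysis, the phosphofructokinases were low and aldolase was high. Phosphofructokinase 1, the committing step, is built from 3 kinds of subunit. Its platelet-type subunit Pfkp had TPM values of 8.72, 8.47 and 7.92, the liver-type Pfkl 5.09, 4.56 and 3.86, and the muscle-type Pfkm 1.63, 1.54 and 1.31. The order was the same in each library with no overlap: Pfkp exceeded Pfkm 5.33-fold (log2 2.41 ± 0.08), Pfkl exceeded Pfkm 2.88-fold (log2 1.53 ± 0.05), and Pfkl lay below Pfkp by a log2 ratio of -0.89 ± 0.13. Pfkfb3, whose product makes the phosphofructokinase activator fructose 2,6-bisphosphate, stood at 7.30 ± 1.16.

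The other genes of upper glycolysis stood well above the phosphofructokinases. Glucose-6-phosphate isomerase Gpi1 had 59.3, 52.9 and 45.7, and triosephosphate isomerase Tpi1 had 67.0, 63.2 and 50.1. Aldoa, the aldolase that splits fructose 1,6-bisphosphate, had 176, 161 and 134, the second highest level of the 48. All 3 were highest in replicate 1 and lowest in replicate 3. This was common on the TPM scale, where 46 of the 48 genes were highest in replicate 1 and 39 were lowest in replicate 3. The matching shares over all genes were not computed, so these counts are not read as particular to the 48.

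The 5 genes of lower glycolysis were the most abundant set, with a median of 95.6. Gapdh, the glyceraldehyde-3-phosphate dehydrogenase, had 319, 294 and 232.5. Pgam1, a phosphoglycerate mutase, had 102, 98.2 and 86.5. Both were lowest in replicate 3. Phosphoglycerate kinase Pgk1 had 78.0, 65.9 and 60.1, enolase Eno1 had 75.1, 67.0 and 55.6, and pyruvate kinase Pkm had 116, 110.4 and 106. Pkm differed least between libraries of these 5, with an SD of 5.33 around a mean of 111.

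Pkm encodes alternative forms of pyruvate kinase, because splicing chooses 1 of a pair of mutually exclusive exons. The M2 exon gives a form whose activity responds to fructose 1,6-bisphosphate, and the M1 exon gives a constitutively active form known from muscle and brain. Each is exon 9 of 11 and is 167 bases long. The M1 exon lies at chr9:59675029-59675195 and the M2 exon at chr9:59675568-59675734 (mm10, plus strand, coding), and they match at 103 positions (61.7%) and differ at 64. The exons are printed from the GENCODE M21 transcripts, with the bases that differ between them in capitals, because these are the bases by which a read can be assigned to 1 form.
Pkm M1 exon: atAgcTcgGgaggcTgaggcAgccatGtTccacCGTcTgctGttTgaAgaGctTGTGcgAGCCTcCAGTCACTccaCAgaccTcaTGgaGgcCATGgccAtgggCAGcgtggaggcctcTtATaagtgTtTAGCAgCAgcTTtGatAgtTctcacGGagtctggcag
Pkm M2 exon: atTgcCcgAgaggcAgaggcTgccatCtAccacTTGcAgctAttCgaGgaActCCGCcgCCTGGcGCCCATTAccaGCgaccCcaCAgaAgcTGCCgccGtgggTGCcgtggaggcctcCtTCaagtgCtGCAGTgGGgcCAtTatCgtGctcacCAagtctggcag

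The M2 transcript Pkm-201 took 88.1, 88.1 and 88.2% of the TPM of Pkm in replicates 1, 2 and 3. The M1 transcript Pkm-202 took 11.0, 11.2 and 9.96%. The M2 form was thus the main one in every library, and the kallisto-format table gave 87.1, 87.7 and 86.3% for it and 11.0, 10.6 and 9.08% for the M1 form. The transcripts also differ outside the alternative exon, since 8 of their 11 exons are identical, so the shares do not rest on the printed bases alone.

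Lactate dehydrogenase interconverts pyruvate and lactate as a tetramer of A and B subunits. Ldha, for the subunit that favours lactate, had TPM values of 112, 93.9 and 89.2. Ldhb, for the subunit of heart muscle, had 1.58, 1.19 and 1.36, from 64, 110 and 145 expected counts. Its mean was the lowest of the 48, but its range overlapped that of Pfkm, which was lower in replicate 3. Ldha exceeded Ldhb 66.8-fold (log2 6.06 ± 0.13), the largest of the 23 ratios.

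HIF-1 is known to bind sites with the core letters ACGTG or GCGTG, and the Ldha promoter is a textbook target, so the promoters of both genes are shown for the letters they hold. The search covered both cores on both strands of RefSeq windows from 250 bases before to 50 after a gene's start (GRCm38.p6). A palindromic CACGTG, which is also the E-box of other factors, counts once on each strand. The Ldha window at chr7:46845554-46845853 (plus strand) holds the 5′ end of the leading Ldha transcript and 7 matches. A second Ldha window, at chr7:46846832-46847131 and not printed, holds 2 matches and not that 5′ end. The Ldhb window at chr6:142507908-142508207 (minus strand) holds 1. Matches are in capitals, and overlapping ones run together.
Ldha promoter: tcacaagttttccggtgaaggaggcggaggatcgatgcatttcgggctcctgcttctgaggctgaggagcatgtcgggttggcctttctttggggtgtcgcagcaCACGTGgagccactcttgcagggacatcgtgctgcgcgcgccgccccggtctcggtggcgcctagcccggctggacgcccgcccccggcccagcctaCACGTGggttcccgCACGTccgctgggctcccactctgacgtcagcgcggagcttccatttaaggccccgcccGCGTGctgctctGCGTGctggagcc
Ldhb promoter: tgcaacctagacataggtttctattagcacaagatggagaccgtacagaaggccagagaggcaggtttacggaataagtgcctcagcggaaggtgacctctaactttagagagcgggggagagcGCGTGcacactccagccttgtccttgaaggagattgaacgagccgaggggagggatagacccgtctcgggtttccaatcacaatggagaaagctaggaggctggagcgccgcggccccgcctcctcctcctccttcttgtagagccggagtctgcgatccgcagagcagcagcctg

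A window was found for 46 of the 48 genes, and 38 of these (82.6%) held a match in at least 1 window. The share was 46.7% over all 27025 genes with a window and 69.6% over the 7227 detected protein-coding genes. Counted by window, 51 of 65 (78.5%) held a match, against 63.5% of the 9266 windows of detected protein-coding genes, and 0.58% of those held 7 or more. The window at the 5′ end of the leading Pkm transcript held none. The other Pkm window, at chr9:59656977-59657276, held 2, so Pkm counts among the 38. A match is a description of letters and not a measured binding site.

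Hif1a itself, for the oxygen-regulated subunit of HIF-1, had TPM values of 15.3, 11.7 and 13.7, lowest in replicate 2. Its partner subunit gene Arnt stood at 9.58 ± 1.05. The transcript Hif1a-201, which starts at the downstream of a pair of first exons, took 74.9, 79.6 and 69.7% of the TPM of the gene, and Hif1a-202, which starts upstream, took 23.4, 20.4 and 27.1%. The kallisto-format shares of Hif1a-202 were lower, at 15.8, 13.1 and 16.9%, and both tables put Hif1a-201 first in each library.

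Pyruvate dehydrogenase, which turns pyruvate into acetyl-CoA, had component genes of moderate level. The E1 subunit genes Pdha1 and Pdhb had TPM values of 14.98, 12.0 and 12.6, and of 14.5, 13.0 and 11.9. Their log2 ratio was 0.00 ± 0.10 and changed sign between libraries. Dlat, for the E2 core, had 6.63, 6.05 and 6.07, below Dld, for the E3 subunit that other dehydrogenase complexes also use, with 16.4, 14.4 and 14.8. The log2 ratio of Dlat to Dld was -1.27 ± 0.03 and the ranges did not overlap. The inhibitory kinase gene Pdk1, a HIF-1 target, stood at 4.68 ± 0.588.

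The 17 TCA cycle genes lay between 3.17 and 60.4, with a median of 22.5. Idh1, for the NADP-dependent isocitrate dehydrogenase of the cytosol, led them with 65.2, 55.0 and 61.2. Its mitochondrial counterpart Idh2 had 21.4, 20.1 and 18.3, and the ratio of Idh1 to Idh2 was 3.02-fold (log2 1.60 ± 0.14). Idh1 was above Idh2 in each library without overlap. Citrate synthase Cs, which starts the cycle, stood at 26.1 ± 3.58, and Ogdh, for the E1 subunit of the 2-oxoglutarate dehydrogenase complex, at 22.5 ± 2.67. Fumarase Fh1 stood at 9.02 ± 1.71.

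The NAD-dependent isocitrate dehydrogenase of the cycle needs a catalytic alpha subunit and the beta and gamma subunits. The alpha subunit gene Idh3a had TPM values of 4.88, 4.30 and 4.09, against 24.3, 22.0 and 17.2 for Idh3b and 19.8, 15.8 and 14.8 for Idh3g. The alpha subunit transcript was thus the lowest of the set in every library, with a log2 ratio of -2.22 ± 0.15 to Idh3b and -1.89 ± 0.09 to Idh3g. Idh3g lay below Idh3b by a log2 ratio of -0.33 ± 0.13. Transcripts typed as protein-coding held 56.0% of the Idh3a TPM in the RSEM-format table and 27.3% in the kallisto-format table. With such transcripts of the RSEM-format table alone, an alternative chosen after seeing the data, the log2 ratio to Idh3b was -2.91.

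Succinyl-CoA ligase pairs the alpha subunit Suclg1 with a beta subunit that sets the nucleotide, Sucla2 for ADP or Suclg2 for GDP. Suclg1 had 13.2, 11.1 and 9.74, Sucla2 10.6, 9.22 and 8.64, and Suclg2 3.78, 2.98 and 2.76. Sucla2 exceeded Suclg2 2.94-fold (log2 1.56 ± 0.08) without overlap. Suclg1 exceeded Suclg2 3.50-fold (log2 1.81 ± 0.05), and Suclg1 and Sucla2 differed by a log2 ratio of 0.25 ± 0.07 with overlapping ranges.

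Succinate dehydrogenase is both a cycle enzyme and complex II of the respiratory chain. Its flavoprotein subunit Sdha had 45.1, 40.9 and 36.8, its iron-sulfur subunit Sdhb 42.8, 36.5 and 31.1, and its membrane anchors Sdhc 25.5, 24.6 and 21.6 and Sdhd 44.5, 34.4 and 32.0. Sdhc was lowest in every library, with a log2 ratio of Sdha to Sdhc of 0.77 ± 0.05 and of Sdhc to Sdhd of -0.62 ± 0.17. Sdhb exceeded Sdhc by 0.61 ± 0.12. Sdha lay above Sdhb by 0.16 ± 0.08 and above Sdhd by 0.16 ± 0.12, and Sdhb and Sdhd had a log2 ratio of -0.00 ± 0.08 with mixed signs.

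Sdhc also had a pair of coding transcripts that differ by an exon. Sdhc-202 contains, as exon 3 of 6, a coding exon of 102 bases at chr1:171143558-171143659 (mm10, minus strand), which Sdhc-201 skips. It is printed from the GENCODE M21 transcript, in lower case throughout, because it is the coding stretch that separates the forms.
Sdhc skipped exon: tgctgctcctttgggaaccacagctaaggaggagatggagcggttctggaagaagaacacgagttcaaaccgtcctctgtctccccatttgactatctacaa

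The shorter Sdhc-201 took 53.9, 61.6 and 59.6% of the TPM of Sdhc in the RSEM-format table and 65.1, 72.1 and 66.5% in the kallisto-format table. Sdhc-202 took 43.6, 35.9 and 38.3%, and 30.0, 25.1 and 29.3%. The transcript without the exon was thus first in every library and both tables. The transcripts differ at the 3′ end too, with a last exon of 499 bases in Sdhc-201 and 2741 in Sdhc-202, so the share does not measure exon skipping alone.

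Malate dehydrogenase had cytosolic (Mdh1) and mitochondrial (Mdh2) genes at similar levels, 28.8, 24.2 and 22.8 against 37.7, 32.7 and 29.3. The log2 ratio of Mdh1 to Mdh2 was -0.40 ± 0.03. It turned to 0.02 with kallisto-format TPM and to 0.09 with protein-coding transcripts alone, the latter chosen after seeing the data. A transcript of Mdh2 typed as a target of nonsense-mediated decay, Mdh2-203, took 33.3 ± 1.84% of its TPM in the RSEM-format table and 10.9 ± 2.22% in the kallisto-format table.

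Acod1, whose product makes itaconate from cis-aconitate and which lipopolysaccharide is known to induce, was the most variable of the 48 genes. Its TPM was 3.93, 5.35 and 2.52, from 445, 1089 and 668 expected counts. Replicate 2 was highest and replicate 3 lowest. A set of 7 lipid A-inducible genes summed to 10.7, 8.66 and 6.32 TPM, with 5 of the 7 below 1 in each library. A set of 8 interferon-inducible genes summed to 570, 261 and 274. Both sums were highest in replicate 1, where protein-coding genes also held the largest share of TPM (26.2, against 22.0 and 21.7%). The part of these sets in the Acod1 values was not tested.

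The oxidative pentose phosphate genes, which produce NADPH, were all well expressed. Glucose-6-phosphate dehydrogenase G6pdx stood at 34.4 ± 5.77, the lactonase Pgls at 25.0 ± 4.03 and 6-phosphogluconate dehydrogenase Pgd at 55.7 ± 6.13. In the non-oxidative branch, which shuttles sugars back to glycolysis, transaldolase Taldo1 had 83.1, 69.5 and 66.5 and transketolase Tkt had 51.5, 49.4 and 40.0. Ribose-5-phosphate isomerase Rpia was far lower, at 3.00, 2.46 and 2.48.

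Tkt had the lowest share of TPM on protein-coding transcripts of the 48 genes in both tables, at 21.8% in RSEM format and 16.1% in kallisto format. A transcript without an annotated coding sequence, Tkt-209, took 78.0, 76.1 and 74.9% of its TPM, and the coding transcript Tkt-201 took 21.6, 22.9 and 21.04%. The kallisto-format table gave Tkt-209 82.6, 83.7 and 81.3%. Tkt-209 shares 12 of its 14 exons exactly with Tkt-201 and differs in the first exon and in a shorter last exon. The annotation types it as a processed transcript. In the RSEM-format table, 39 of the 48 genes had at least 90% of their TPM on transcripts typed as protein-coding, and the 9 others were Slc2a1, Hk2, Hk3, Gpi1, Dlat, Idh3a, Mdh2, Taldo1 and Tkt. The kallisto-format table also put 9 genes under 90%, and 6 of them were the same. Hk2, Hk3 and Taldo1 passed there, while Pdk1 (48.3%), Fh1 (82.9%) and Pfkfb3 (85.1%) did not. Coding shares were not computed for other genes, so these counts have no background beside them.

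**Figure D3:**
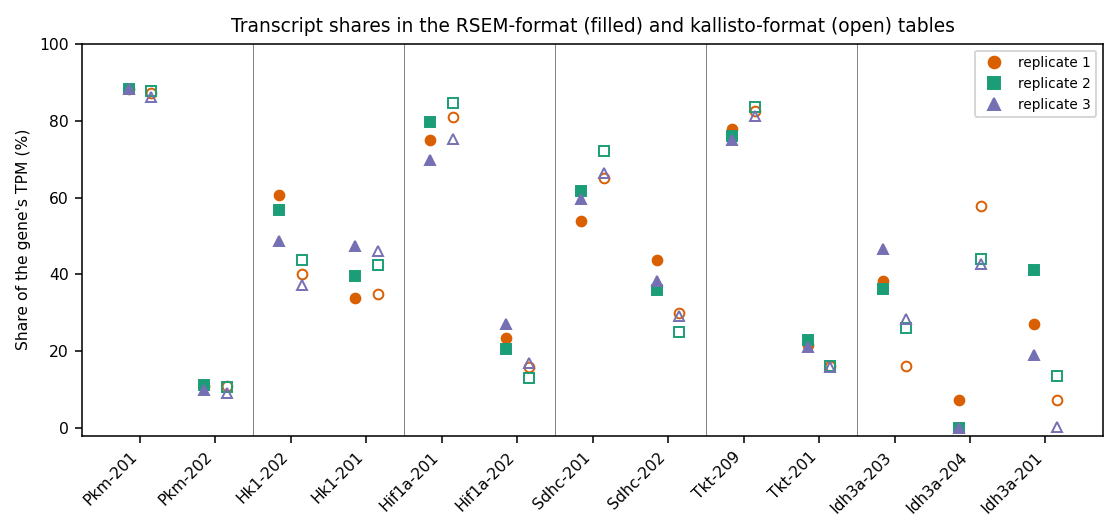
Share of the gene's TPM (%) taken by selected transcripts in each library, filled in the RSEM-format table and open in the kallisto-format table. Pkm-201 stays between 86.3 and 88.2%, whereas Idh3a-204 lies between 0 and 7.17% in one table and between 42.6 and 57.9% in the other.

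By mean share, the tables gave the same leading transcript for 43 of the 48 genes and a different one for 5, namely Hk1, Pfkfb3, Idh3a, Sucla2 and Suclg2. For Hk1, the transcripts Hk1-202 and Hk1-201 took 60.7, 56.7 and 48.8% and 33.8, 39.6 and 47.4% in the RSEM-format table, and 40.0, 43.7 and 37.2% and 34.9, 42.5 and 46.1% in the kallisto-format table. The kallisto-format means of 40.3 and 41.2% thus differ in order only through replicate 3. For Idh3a, the retained-intron transcript Idh3a-203 led in the RSEM-format table with 38.3, 36.3 and 46.7%, while in the kallisto-format table Idh3a-204, typed as a target of nonsense-mediated decay, led with 57.9, 43.9 and 42.6%. At the level of genes the tables ordered the 48 alike (Spearman rho 0.998 across genes, which are not independent replicates and share libraries and reads). The kallisto-format TPM was 0.320 to 0.616 times the RSEM-format value, and 45 genes kept a TPM of at least 1 in all 3 libraries, all but Slc2a1, Pfkm and Ldhb. Neither this count nor that of shared leading transcripts was taken over other genes, so neither is read as particular to the 48.

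Several glycolytic genes have annotated pseudogenes of similar sequence, so some of their reads may be split. Annotated pseudogenes with at least 85% identity over at least 200 bases numbered 312 for Gapdh, of which 76 held counts, and these copies took 3.52, 6.39 and 6.85% of the counts of Gapdh and its copies together. For Pgk1, 6 copies took 5.29, 7.65 and 7.10%, nearly all on Gm5537, which matched Pgk1 at 100% over 1252 bases. The kallisto-format counts put 1.06, 1.59 and 2.46% on the Gapdh copies and 6.24, 7.57 and 1.32% on the Pgk1 copies. The copies of Ldha took 1.03 ± 0.195%, those of Pgam1 0.932 ± 0.403% and those of Eno1 0.879 ± 0.354%. Each share is 1 allocation of the reads, and for Gapdh and Pgk1 the tables differ, so the shares do not bound the uncertainty of these levels.

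For the spread between libraries, counts were scaled by edgeR's TMM and given as CPM (counts scaled to library size), and the SD of log2 CPM was taken over the 3 libraries. The median SD was 0.0927 over the 48 genes, against 0.1191 over the 12413 genes that passed edgeR's filter on low counts and 0.0971 over detected protein-coding genes. SDs ran from 0.0155 for Sucla2 to 0.5535 for Acod1, and after Acod1 came Gapdh (0.197), Tpi1 (0.175), Tkt (0.168), Gpi1 (0.151) and Eno1 (0.147). Acod1 was the 1 gene of the 48 whose highest library was at least 1.5 times its lowest, at 16.3, 26.2 and 12.2 CPM, a ratio of 2.14. The background was 15.9% of genes past the filter, which does not select by gene type or by detection. The share over detected protein-coding genes, to which all 48 belong, was not computed. Without replicate 2, none of the 48 was 1.5-fold apart, with 12.0% for all genes past the filter. Without replicate 3 the median SD fell to 0.0521, with 0.0853 for all genes past the filter. Without replicate 1 it was 0.1026 for the 48 and 0.1026 for all genes, so the lower spread of the 48 was absent there, and without replicate 2 it was 0.0915 and 0.1148.

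The 48 genes leaned the same way in replicate 3. Relative to the mean of the other libraries, their median difference in log2 CPM was 0.05 in replicate 1, 0.10 in replicate 2 and -0.11 in replicate 3, and 32, 40 and 7 of the 48 were positive. Over all genes past the filter the medians were -0.01, 0.00 and 0.00, with 48.6, 50.7 and 50.5% positive. Over detected protein-coding genes, to which all 48 belong, the medians were 0.01, 0.01 and -0.03, so these too were slightly lower in replicate 3. With counts scaled by library totals alone, the medians of the 48 genes were 0.13, 0.08 and -0.18 and those of all genes past the filter 0.07, -0.01 and -0.06. Relative to all genes past the filter, the 48 differed by 0.05, 0.10 and -0.12 under either scaling. Each scaling shifts all genes of a library alike, so this match was set by construction and is no check of the lean. Glycolysis with lactate dehydrogenase had 3 of 18 genes positive in replicate 3, pyruvate dehydrogenase with the TCA cycle 3 of 22, and the pentose phosphate genes 0 of 6.

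In TPM, 46 of the 48 genes were highest in replicate 1, the library in which protein-coding genes held the largest share of TPM. On the TMM scale only 14 were highest in replicate 1, while 36 were lowest in replicate 3. On neither scale were these counts taken over all genes, so they are not read as particular to the 48. A set of 5 nuclear-retained RNAs summed to 245, 224 and 1111 TPM, led by Malat1 at 224, 207 and 1008, and was thus highest in replicate 3. Its part in the lower values of the 48 genes there was not tested.

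**Figure D4:**
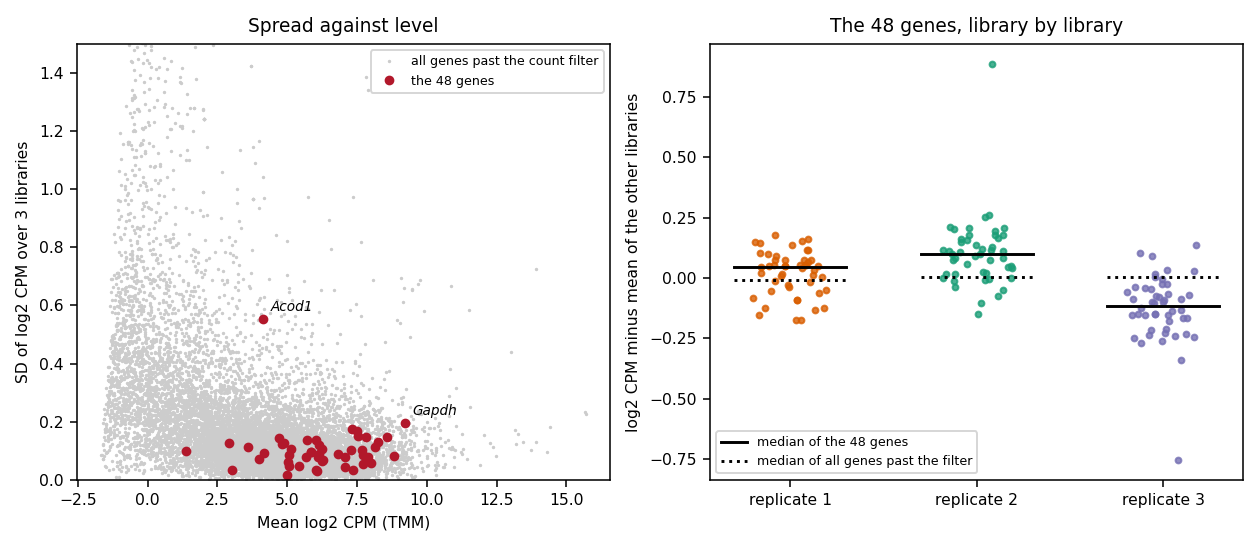
Left, SD of log2 CPM over 3 libraries against mean log2 CPM for all genes past the count filter (grey) and the 48 genes (red); 43 genes with an SD above 1.5 are not drawn. Right, log2 CPM of each of the 48 genes minus the mean of the other libraries, with their median (solid) and that of all genes past the filter (dotted). Acod1 stands apart on both sides, and in replicate 3 the solid line is at -0.11 and the dotted line at 0.00.

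The other genes of these pathways were taken from lists of 88 genes, of which 55 had a TPM of at least 1 in all 3 libraries, 31 were below 1 in each and 13 were listed at 0 in each. These lists too were chosen with earlier results of these data known. The isoenzymes known from other tissues were mostly at or near 0. Of 15, 8 were listed at 0 in each library, among them the liver and red cell pyruvate kinase gene Pklr and the testis genes Ldhc, Pgk2 and Gapdhs. The brain aldolase gene Aldoc had 5.43, 5.09 and 2.43, lowest in replicate 3, the neuronal enolase gene Eno2 had 1.26, 1.14 and 1.40, and Eno1b, a near copy of Eno1 whose reads may be shared with it, had 0.89, 1.89 and 1.68.

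Among glucose and fructose transporters other than Slc2a1, 4 of 8 were detected. Slc2a8, for an intracellular transporter, had 5.49, 4.79 and 4.75, and Slc2a6 had 5.25, 2.61 and 2.01, so each had a higher mean than Slc2a1. The ranges of Slc2a6 and Slc2a1 overlapped, with Slc2a6 highest in replicate 1. Slc2a3, for the neuronal-type transporter GLUT3, had 1.19, 1.70 and 1.06. Of the 6 genes that control fructose 2,6-bisphosphate or remove fructose 1,6-bisphosphate, 3 were detected, led by Pfkfb4 (5.81 ± 0.817), while the gluconeogenic bisphosphatase genes Fbp1 and Fbp2 were at or near 0.

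All 5 monocarboxylate and pyruvate carriers were detected. Mpc1, for a subunit of the mitochondrial pyruvate carrier, had 79.1, 63.9 and 64.0, against 16.5, 14.0 and 13.4 for its partner Mpc2. Of the plasma membrane carriers, Slc16a7 had 20.1, 15.6 and 14.7 and exceeded the lactate exporter gene Slc16a3, with 4.65, 3.63 and 3.43. The pyruvate dehydrogenase phosphatase gene Pdp1 stood at 12.3 ± 0.859, above the kinase genes Pdk3 (2.67 ± 0.480) and Pdk2 (2.37 ± 0.215), and Pdk4 was listed at 0 in each library. Dlst, for the E2 subunit of the 2-oxoglutarate dehydrogenase complex, stood at 18.2 ± 1.74 and the cytosolic aconitase gene Aco1 at 11.5 ± 0.884.

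Of 14 genes for anaplerosis and citrate export, 10 were detected, led by the glutamate dehydrogenase gene Glud1 (39.2 ± 5.11), the oxoglutarate carrier gene Slc25a11 (25.8 ± 4.54) and the citrate lyase gene Acly (23.7 ± 2.62). The pyruvate carboxylase gene Pcx stood at 0.103 ± 0.0153, and Pck1, for the cytosolic enzyme of gluconeogenesis, was listed at 0 in each library. Of 9 genes of glycogen and gluconeogenesis 7 were detected, led by the phosphorylase genes Pygl (13.3 ± 1.46) and Pygb (13.0 ± 0.742), and of 4 further pentose phosphate genes 3 were detected, led by Rpe (7.13 ± 0.806). In the HIF pathway 6 of 8 genes were detected, including Egln2 (10.4 ± 0.672) and Egln1 (5.56 ± 0.662) for oxygen-sensing hydroxylases, whereas Egln3 had 0.04, 0.07 and 0.05. Of 10 HIF targets outside glycolysis 7 were detected, led by the growth factor gene Vegfa (12.1, 10.2 and 16.0, highest in replicate 3), P4ha1 (11.9 ± 1.63) and Ndrg1 (11.0 ± 1.89), and Adm was at or near 0.

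**Figure D5:**
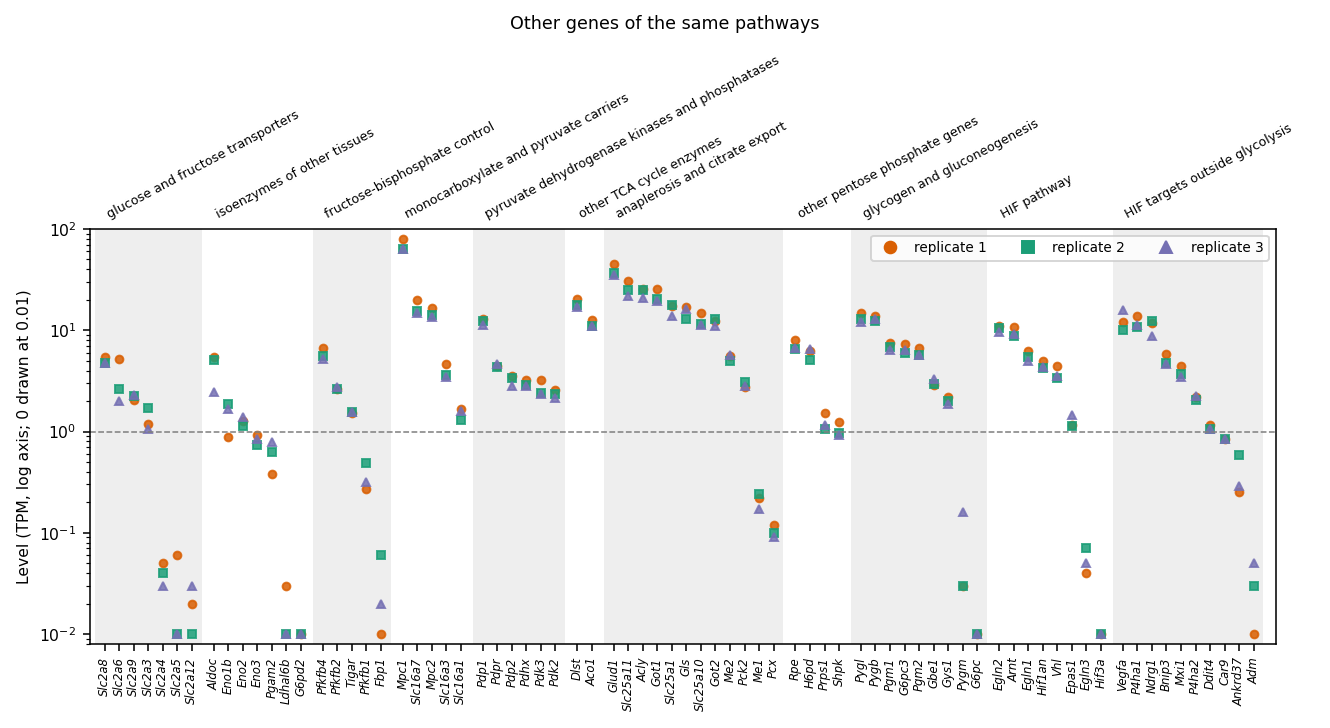
Levels (TPM, log axis, 0 drawn at 0.01) of the other pathway genes in the 3 libraries by list; 13 genes at 0 in every library are not drawn, and the dashed line marks a TPM of 1. Mpc1 is the highest at 63.9 to 79.1, and most isoenzymes of other tissues lie below the line.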

How the data were processed

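The genes and lists were chosen with earlier results of these data known. Per the file headers, the authors deposited gene and transcript tables in RSEM format and transcript tables in kallisto format. Per the labels and the deposited notes, values refer to mm10 and GENCODE M21; tool versions are not given in the sources used here. The authors deposited expected counts, TPM (maximum likelihood and posterior mean), FPKM, and credibility bounds as signal values. The deposited TPM lay outside its own bounds in at least 1 library for Aldoa, Pkm, Pgam1 and Hk1.

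Expected counts were rounded and scaled with edgeR 4.0.16 (TMM, factors 1.037, 0.9925 and 0.9715; prior count 2; design with an intercept only); DESeq2 1.42.0 size factors were an alternative. This step was tested on simulated data. A count of 0 allows up to 3 counts, or 0.114, 0.0716 and 0.0533 CPM in replicates 1, 2 and 3, for counting error only. Ratios used TPM + 0.1 and two-sided exact sign-flip tests. Pseudogene copies were found with blastn 2.17.0. Values in each library were given for isoenzyme families, the 8 highest and 8 lowest genes and the 6 with the largest SD, and for up to 3 genes per further list. A second identifier for Aldoa (0, 3 and 2 counts) was left out. Some genes of the further lists are not reported here.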

Additional observations from a re-analysis of the deposited data

How the results depend on the processing

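Of the alternative values of the 23 ratios (pseudocount, table format, FPKM, posterior mean, each library left out, coding transcripts only), 198 kept their sign and 9 did not, and 20 pairs kept it throughout. Sdhb to Sdhd turned from -0.00393 to 0.0193 with kallisto-format TPM and ranged from -0.0485 to 0.0223 with 1 library left out. Pdha1 to Pdhb turned from 0.00281 to -0.00892 with kallisto-format TPM and -0.0119 with posterior mean TPM, and ranged from -0.0338 to 0.0598 with 1 library left out. Mdh1 to Mdh2 turned to 0.0176 with kallisto-format TPM and 0.0861 with coding transcripts only, which was chosen after seeing the data. The median level was 9.30 with kallisto-format TPM and 93.7 with TPM rescaled to protein-coding genes, by construction of the scale. With expected counts in place of TPM, the share was 0.686% in all. It was 0.396% for glycolysis with lactate dehydrogenase, 0.189% for pyruvate dehydrogenase with the TCA cycle and 0.0853% for the pentose phosphate genes. At a TPM of 5, 28 other pathway genes were detected. Leaving out 1 library moved the median SD between 0.0521 and 0.1026 and the count of genes 1.5-fold apart between 0 and 1. Kallisto-format shares were 87.0% for Pkm-201 (87.8% with posterior mean TPM), 82.5% for Tkt-209, 15.3% for Hif1a-202, 67.9% for Sdhc-201 and 23.5% for Idh3a-203. Kallisto-format counts put 1.70, 5.04, 0.0105 and 0.0628% on copies of Gapdh, Pgk1, Pgam1 and Eno1. For changes other than the rescaling, the cause was not tested. No paired analysis was possible because there is 1 group. Depth limits the lowest genes most, with 64 counts for Ldhb in replicate 1.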
